A study of Homo sapiens with 24 samples.

Results

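The collagen genes were taken as the family of genes whose names follow the pattern COL, number, A, number, with COL17A1 left out, and their members are the peaks of the SWI/SNF subunits BRG1, BRM and SNF5 that give such a gene as the nearest transcription start site (TSS). Of 44 collagen genes in RefSeq, 43 were considered, and 35 of these were named by at least 1 peak. The members were 173 of 80150 peaks, namely 114 of 51504 BRG1 peaks, 52 of 22157 BRM peaks and 7 of 6489 SNF5 peaks. The cells were RWPE1, a human prostate epithelial line of benign origin. They were infected with lentivirus carrying either SCHLAP1, a noncoding RNA linked to aggressive prostate tumours, or LACZ as the control, and selected in 2.5 ug/mL blasticidin. SCHLAP1 cells were fixed in 0.3% formaldehyde, their chromatin was cut with MNase, and each subunit was pulled down in 2 samples, for which 1 peak list per subunit was used here. The labels do not say whether the cells were a pool or a clone. With no subunit list from the LACZ control, nothing below measures an effect of SCHLAP1. The lists hold positions and widths without reads, so depth cannot be given, replicates cannot be compared and no test between classes was made. A gene without a peak is a gene without a called peak.

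Collagens are secreted proteins of 3 chains wound into a triple helix. Fibrillar collagens (types I, II, III, V, XI, XXIV and XXVII) form the fibrils of stroma, bone and cartilage and are made mostly by mesenchymal cells. Basement membrane collagens (type IV, with the multiplexins XV and XVIII) form or link the sheet on which epithelial cells sit, and epithelial cells make some of them. The other collagens decorate fibrils (the FACIT group), anchor epithelium to stroma (type VII), form beaded filaments (type VI) or short-chain networks (types VIII and X), or span the cell membrane. SWI/SNF is a remodelling complex that moves nucleosomes at promoters and enhancers. BRG1 and BRM are its alternative ATPases and SNF5 is a core subunit.

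Peaks of genes that mark cell types were looked up in the same lists. Of 6 basal epithelial markers BRG1 named 5 and BRM 5, with KRT5, KRT14, KRT15 and ITGB4 in both lists, TP63 in that of BRG1 and ITGA6 in that of BRM. Of 8 fibroblast markers BRG1 named 4 (PDGFRA, PDGFRB, FAP and FBLN1) and BRM the first 3 of these. No peak in any list named DCN, LUM, THY1 or POSTN. SNF5 named 2 basal markers and 0 fibroblast markers. Among all 19974 protein-coding genes BRG1 named 63.7%, BRM 49.7% and SNF5 19.7%, so the fibroblast counts were not above the background for BRG1 and BRM. The name given to a peak matched a RefSeq gene for 81.4% of the BRG1 list, 86.9% of the BRM list and 90.5% of the SNF5 list.

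BRG1 named 33 of the 43 collagen genes (76.7%), BRM 24 (55.8%) and SNF5 4 (9.30%). Over all protein-coding genes the shares were 63.7%, 49.7% and 19.7%. Collagen genes are long, with a median RefSeq span of 150 kb against 24.2 kb for all protein-coding genes. Of the 26 collagens over 100 kb, 20 were named by BRG1 (76.9%), 13 by BRM (50%) and 2 by SNF5 (7.69%). Among the 3351 protein-coding genes over 100 kb the shares were 77.2%, 57.4% and 20.6%. Of the 17 shorter collagens, 13 were named by BRG1 (76.5%), 11 by BRM (64.7%) and 2 by SNF5 (11.8%), against 61.0%, 48.2% and 19.5% of protein-coding genes up to 100 kb. By name, the BRG1 share was thus near the background among long collagens and above it among shorter ones. The SNF5 share was below it in both. Counted as any peak within 1 kb of the span, BRG1 reached 11 of the 17 shorter collagens (64.7%), against 70.3% of all protein-coding genes. That background includes the genes over 100 kb, of which 84.3% had such a peak, and it was not calculated for shorter genes alone. Whether the BRG1 excess among shorter collagens by name also holds by span therefore cannot be told from these values. The lists differ in length, and with the 6489 widest peaks of each BRG1 named 8 collagens, BRM 5 and SNF5 4. The share of all protein-coding genes named by these widest peaks was not calculated, so these counts cannot be called high or low. With promoter peaks alone, within 1 kb of a TSS, BRG1 named 25 collagens (58.1%, against 55.8% of all genes), BRM 19 (44.2%, against 45.8%) and SNF5 3 (6.98%, against 18.1%).

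**Figure D1:**
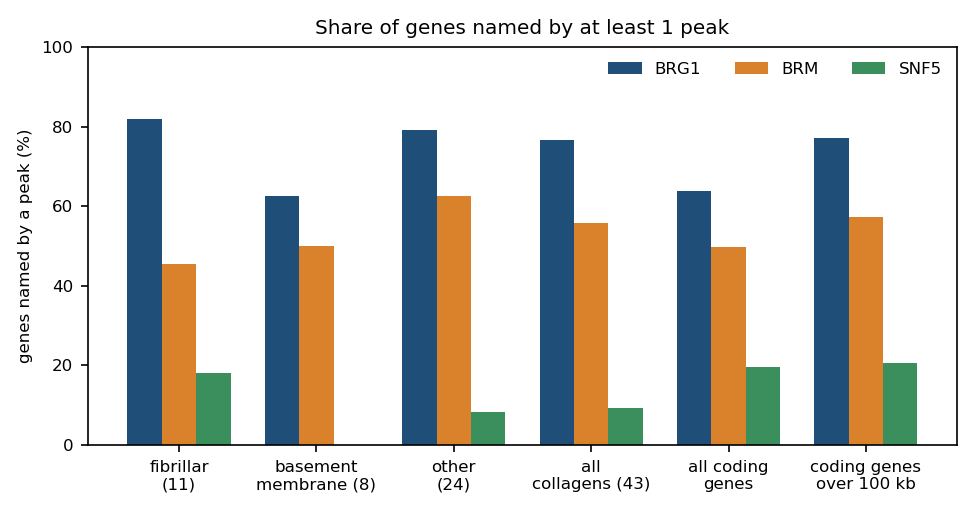
Share of genes, in percent, that at least 1 peak of BRG1, BRM or SNF5 gives as nearest TSS, for the 3 collagen classes, all 43 collagens, all protein-coding genes and those over 100 kb. SNF5 named 0 of 8 basement membrane collagens and 9.30% of all collagens, against 19.7% of all protein-coding genes; the bars have no error since each subunit has 1 list.

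The count of named genes by class and subunit was as follows. Of 11 fibrillar collagens BRG1 named 9, BRM 5 and SNF5 2. Of 8 basement membrane collagens BRG1 named 5, BRM 4 and SNF5 0. Of 24 other collagens BRG1 named 19, BRM 15 and SNF5 2. Both ATPases named 22 genes, BRG1 without BRM 11, and BRM without BRG1 2, which were COL4A4 and COL20A1. The 4 fibrillar genes named by BRG1 and not by BRM were COL1A2, COL2A1, COL5A2 and COL24A1. The 8 genes that no list named were COL3A1 and COL11A1 among fibrillar collagens, COL4A6 and COL15A1 among basement membrane collagens, and COL6A2, COL6A5, COL6A6 and COL9A1 among the others. COL3A1, the chain of type III collagen of soft stroma, also had no peak of any list within 1 kb of its span.

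**Figure D2:**
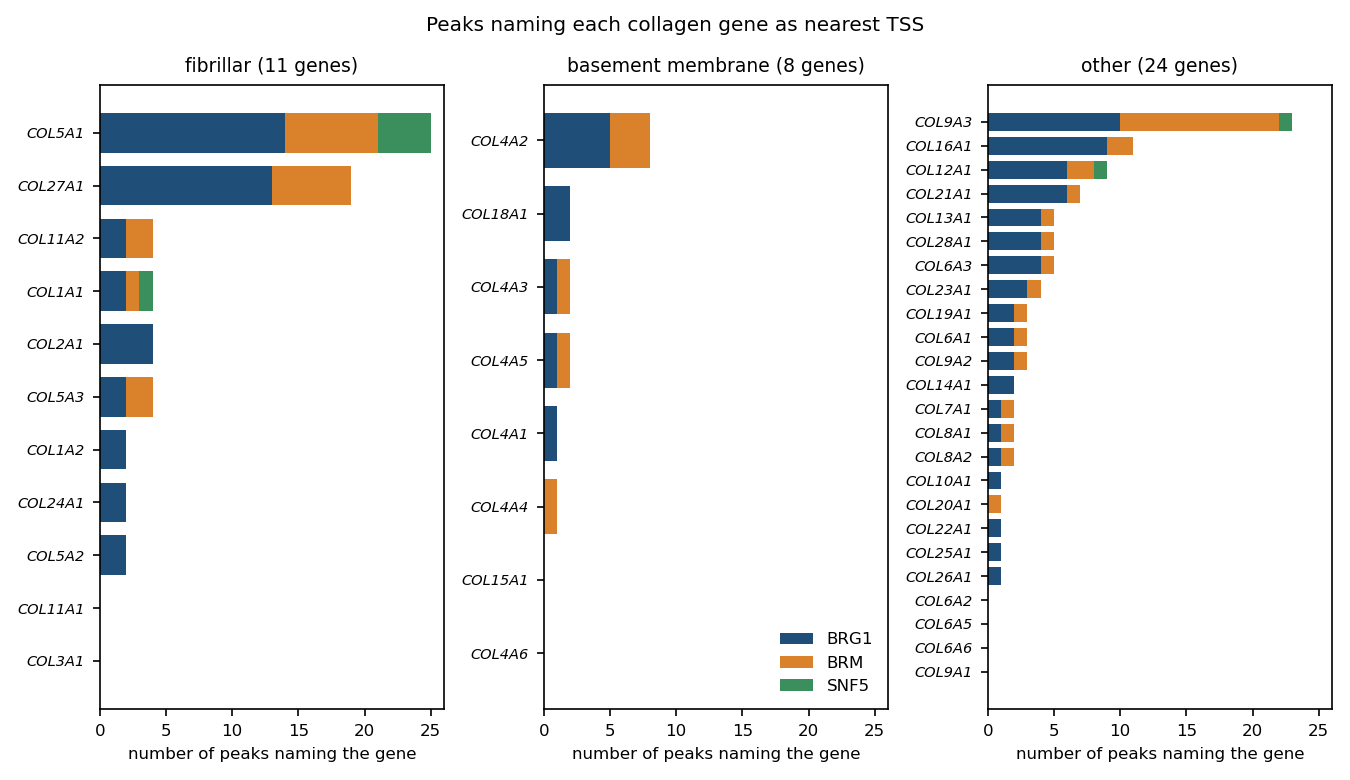
Number of BRG1, BRM and SNF5 peaks, stacked, that name each of the 43 collagen genes, in 3 panels by class. COL5A1, COL27A1 and COL9A3 had the most BRG1 peaks (14, 13 and 10), and 8 genes had no peak in any list.

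Of the 33 genes named by BRG1, 25 had a BRG1 peak annotated as promoter, within 1 kb of a TSS. Another 6 had none at a promoter and at least 1 elsewhere inside the RefSeq span. These were COL5A2 (with peaks annotated as distal), COL8A2, COL10A1, COL21A1, COL22A1 and COL28A1. COL1A2 and COL6A3 had BRG1 peaks only outside it. A BRG1 peak, given to any gene, covered a start listed in RefSeq in 17 of the 43 collagens. The deposited annotation uses the nearest of all TSSs of a gene, so that a promoter peak can lie deep in the span of RefSeq. In COL16A1, a FACIT collagen, 4 of 9 BRG1 peaks were annotated as promoter, at 190, 13910, 33872 and 37424 bp from the RefSeq start. Only the first of these 4 was joined by a BRM peak. The widest BRG1 peak of COL16A1 (1315 bp, chr1:31700641-31701955) lay in an intron and held a BRM peak of 756 bp.

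The sequences at 6 of these sites are shown because the peaks described below lie on or beside them. They were read from the RefSeq promoter table (GRCh38.p14, the same assembly as the hg38 of the lists), 5′ to 3′, and stop before the RefSeq start. The first pair of stretches are the whole gaps between divergent RefSeq starts, and the others are the 250 bases before a start. Capitals mark matches, on either strand, to any of the motifs that follow, none of which contains another. The first is the CCAAT box, spelled as its name, which the factor NF-Y binds. The second is the GC box GGGCGG, which SP1 and its relatives bind. The TATA box was searched as TATAAA, the element that TBP binds near many starts. For AP-1, the family of JUN and FOS proteins, the letters were TGANTCA with any base at the centre. For TEAD factors, the partners of YAP and TAZ in DNA binding, they were GGAATG.
COL4A1 to COL4A2 (chr13:110307158-110307283, plus strand): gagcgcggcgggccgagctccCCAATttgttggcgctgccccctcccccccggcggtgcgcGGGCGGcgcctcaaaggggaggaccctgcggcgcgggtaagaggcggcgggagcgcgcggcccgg
COL4A4 to COL4A3 (chr2:227164489-227164623, plus strand): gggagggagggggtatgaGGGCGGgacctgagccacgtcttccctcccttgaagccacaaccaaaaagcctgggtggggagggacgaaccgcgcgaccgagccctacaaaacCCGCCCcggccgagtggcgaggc
COL4A5 (chrX:108439588-108439837, plus strand): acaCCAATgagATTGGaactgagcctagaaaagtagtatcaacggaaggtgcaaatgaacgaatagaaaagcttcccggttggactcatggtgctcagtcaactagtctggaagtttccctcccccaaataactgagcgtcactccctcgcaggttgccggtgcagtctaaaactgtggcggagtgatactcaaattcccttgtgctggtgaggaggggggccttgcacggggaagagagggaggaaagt
COL5A1 (chr9:134641553-134641802, plus strand): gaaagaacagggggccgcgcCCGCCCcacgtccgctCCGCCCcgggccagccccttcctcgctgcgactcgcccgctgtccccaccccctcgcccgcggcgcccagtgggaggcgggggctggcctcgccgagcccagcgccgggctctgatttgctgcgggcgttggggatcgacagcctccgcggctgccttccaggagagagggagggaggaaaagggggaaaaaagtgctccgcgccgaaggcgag
COL12A1 (chr6:75206054-75206303, minus strand): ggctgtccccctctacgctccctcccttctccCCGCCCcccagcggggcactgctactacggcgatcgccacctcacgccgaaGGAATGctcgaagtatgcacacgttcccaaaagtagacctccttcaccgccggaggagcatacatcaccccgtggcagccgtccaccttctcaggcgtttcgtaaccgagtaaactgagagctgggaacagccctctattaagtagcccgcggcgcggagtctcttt
COL7A1 (chr3:48595330-48595579, minus strand): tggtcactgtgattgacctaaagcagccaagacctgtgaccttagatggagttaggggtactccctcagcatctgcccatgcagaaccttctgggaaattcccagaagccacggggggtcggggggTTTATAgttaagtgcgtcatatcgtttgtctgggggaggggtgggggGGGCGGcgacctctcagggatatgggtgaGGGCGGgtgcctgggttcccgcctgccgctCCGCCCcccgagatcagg

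The promoter table held 43 promoters of 300 bases for 31 of the collagen genes, and 17 of these promoters were met by a BRG1 peak. A GC box stood in 13 of the 17 and in 11 of the 26 that BRG1 did not meet, against 45.0% of all 35116 promoters in the table. A CCAAT box stood in 4 of the 17 and 9 of the 26 (34.6% of all), and a TATA box in 2 and 5 (11.5% of all). The AP-1 motif was found in a single collagen promoter, one of those of COL10A1 that BRG1 did not meet, and in 7.71% of all promoters. The TEAD motif stood in 1 of the 17, that of COL12A1, and in 2 of the 26 (14% of all). The 17 promoters met by BRG1 had a median GC content of 68.3%, the other 26 one of 59.0% and all promoters one of 58.7%. GC content and GC boxes move together, and the part of either in where peaks lie was not tested. Some of the 43 promoters overlap, as those of COL5A1 and of the type IV pairs do, so a motif can count more than once. The promoters of all genes were not split by BRG1, so the split cannot be called particular to collagens.

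Type IV collagen genes stand in head-to-head pairs, and the peaks lay between or beside the paired starts. COL4A1 and COL4A2 encode the chains found in nearly all basement membranes, and 126 bases separate their RefSeq starts. A BRG1 peak of 1095 bp (chr13:110306390-110307484) and a BRM peak of 475 bp (chr13:110307011-110307485) both covered the 2 starts and the whole stretch printed above, and ended 1 bp apart. The annotation gave the BRG1 peak to COL4A1 and the BRM peak to COL4A2, so COL4A1 counts as not named by BRM although its start lay under a BRM peak. A second pair of peaks, of 1135 bp for BRG1 and 766 bp for BRM, began at 110307689 and 110307694 inside COL4A2. COL4A2 had 3 further BRG1 peaks more than 100 kb into the gene, with widths of 466, 1251 and 437 bp, and no BRM peak met any of them. The widest of these lay at chr13:110447801-110449051. A BRG1 peak 12760 bp from the start (884 bp) did hold a BRM peak (432 bp).

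COL4A3 and COL4A4 encode chains of the specialised basement membranes of kidney, lung and eye. A BRG1 peak of 1504 bp (chr2:227163752-227165255) covered both starts, which lie 135 bases apart, and was given to COL4A3. The BRM list split this site. A BRM peak of 447 bp (227163973 to 227164419) was given to COL4A4 and one of 376 bp (227164636 to 227165011) to COL4A3, and the printed gap between the starts lay in neither. COL4A5 and COL4A6, the pair on chromosome X, are 379 bases apart. A BRM peak of 342 bp (108439806 to 108440147) covered the start of COL4A5, and a BRG1 peak of 344 bp (108440212 to 108440555) began after it ended. No peak covered the start of COL4A6. Chromosome X held few peaks in general, and 27.8% of its protein-coding genes were named by BRG1 and 8.14% by BRM.

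**Figure D3:**
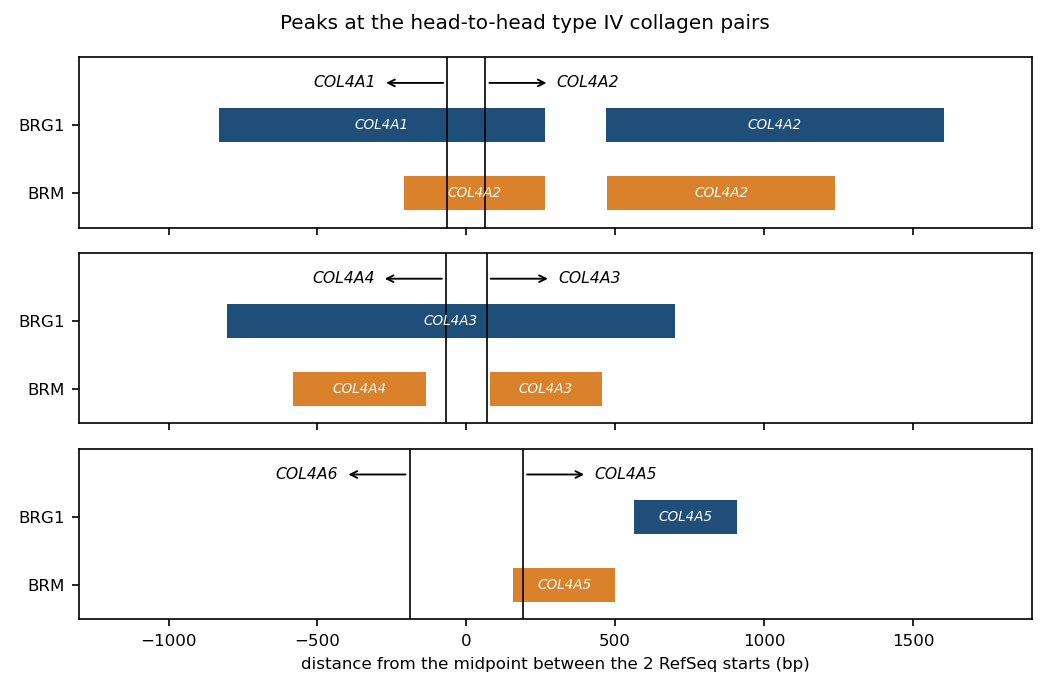
BRG1 and BRM peaks (bars, labelled with the gene that the deposited annotation gives) around the 3 head-to-head type IV pairs, against the distance in bp from the midpoint between the RefSeq starts (vertical lines, arrows for the direction of transcription). A BRG1 peak spans both starts of the first and second pair, and at the pair on chromosome X the BRG1 and BRM peaks do not meet.

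By the span of the gene rather than the nearest TSS, every one of the 8 basement membrane collagens had a BRG1 peak within 1 kb and 7 had a BRM peak, against 5 and 4 by name. All 8 are over 100 kb, and of all protein-coding genes of that length 84.3% had a BRG1 peak and 64.9% a BRM peak counted this way. COL18A1, whose product releases endostatin, was named by BRG1 peaks of 575 and 587 bp and by no BRM peak. Within 1 kb of its span lay 6 more BRG1 and 4 BRM peaks that were given to BX322562.1, COL18A1-AS1, COL18A1-AS2 or MIR6815. The widest of these was a BRG1 peak of 1836 bp before the gene (chr21:45402979-45404814). COL15A1, the other multiplexin, had BRG1 peaks of 436 and 352 bp given to AL136084.3 and no BRM peak. No SNF5 peak lay within 1 kb of any basement membrane collagen. The other neighbouring collagens stand in tandem or tail to tail, 2.59 to 93.1 kb apart, and so have no shared start region to compare. No peak of any list lay between COL3A1 and COL5A2, COL6A1 and COL6A2, COL6A5 and COL6A6, or COL19A1 and COL9A1.

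Among fibrillar collagens the type V and type XXVII genes carried most of the peaks. COL5A1, the main chain of type V collagen, which sets fibril diameter, had 14 BRG1, 7 BRM and 4 SNF5 peaks, the most of any collagen for BRG1 and SNF5. Counts of this size were not rare among long genes: within 1 kb of the span, COL5A1 had 12 and COL27A1 14 BRG1 peaks, and 13% of all protein-coding genes over 100 kb had 10 or more. At its start a BRG1 peak of 1526 bp (chr9:134641370-134642895) and a BRM peak of 1425 bp (134641238 to 134642662) overlapped and covered the RefSeq start at 134641803. Another 3 peaks, all short and of SNF5, met this BRG1 peak, of 160, 163 and 180 bp, and the middle one covered the start. The SNF5 peak of 180 bp (134642736 to 134642915) met no BRM peak. The fourth SNF5 peak of the gene (151 bp) lay 16496 bp before the gene span on a BRG1 peak of 1108 bp that no BRM peak met. The other 12 BRG1 peaks of COL5A1 were 331 to 1327 bp wide, and 11 of them lay in introns, as far as 185224 bp from the start.

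COL27A1, a fibrillar collagen of cartilage, had 13 BRG1 and 6 BRM peaks and no SNF5 peak. Its BRG1 peaks fell into 2 stretches, 7 within 23554 bp of the RefSeq start and 6 between 119354 and 135102 bp from it. Another BRG1 peak of 893 bp between these stretches (chr9:114223532-114224424) was given to MIR455. The widest BRG1 peak of any collagen, 2969 bp (chr9:114276993-114279961), lay in the second stretch in an intron and held 2 narrow BRM peaks of 318 and 540 bp. Both BRG1 peaks annotated as promoter were narrower. The one of 878 bp held a BRM peak of 646 bp, and the one of 1008 bp met none.

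COL1A1, the main chain of type I collagen, was the other fibrillar gene with all 3 subunits. A BRG1 peak of 2065 bp (chr17:50199197-50201261) held a BRM peak of 1038 bp (50199964 to 50201001) and an SNF5 peak of 262 bp (50199928 to 50200189). The centre of the BRG1 peak lay 1402 bp into the RefSeq span, so the peak did not reach the outermost start. COL1A2, which encodes the partner chain of type I collagen, had no peak in its span, and its BRG1 peaks of 752 and 472 bp lay 93336 and 58664 bp away from it. COL2A1, the fibrillar collagen of cartilage, had 4 BRG1 peaks of 331 to 899 bp and no BRM peak. COL11A2, a chain of type XI collagen, had a promoter site of both ATPases, with a BRG1 peak of 1106 bp (chr6:33192324-33193429) and a BRM peak of 643 bp. COL5A3, a further type V chain, had one with a BRG1 peak of 1052 bp (chr19:10009063-10010114) and a BRM peak of 372 bp. COL24A1 had BRG1 peaks of 362 and 512 bp at its start. COL5A2 was named by 2 BRG1 peaks of 414 and 331 bp inside its RefSeq span of 409 kb. Both were annotated as distal, 24700 and 31011 bp from the nearest TSS. A BRG1 peak over the outermost RefSeq start of COL5A2 was given to WDR75.

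Of the fibrillar BRG1 peaks, 25.6% were promoter peaks (11 of 43; 95% exact binomial interval 13.5 to 41.2), against 50% for basement membrane collagens (5 of 10; 18.7 to 81.3), 39.3% for the others (24 of 61; 27.1 to 52.7) and 37.3% of all BRG1 peaks. These intervals treat peaks as independent, which peaks of 1 gene are not, and cover counting error only. COL5A1 and COL27A1 gave 27 of the 43 fibrillar peaks and 3 of the 11 promoter peaks. Without them 50% of the fibrillar BRG1 peaks were promoter peaks (8 of 16). Without COL4A2, which gave 5 of the 10 basement membrane peaks, the share of that class was 80%. For BRM the promoter shares were 27.8% (5 of 18) for fibrillar, 83.3% (5 of 6) for basement membrane and 57.1% (16 of 28) for other collagens, against 62.8% of all BRM peaks. Without COL5A1 and COL27A1 the fibrillar share for BRM was 60.0%.

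**Figure D4:**
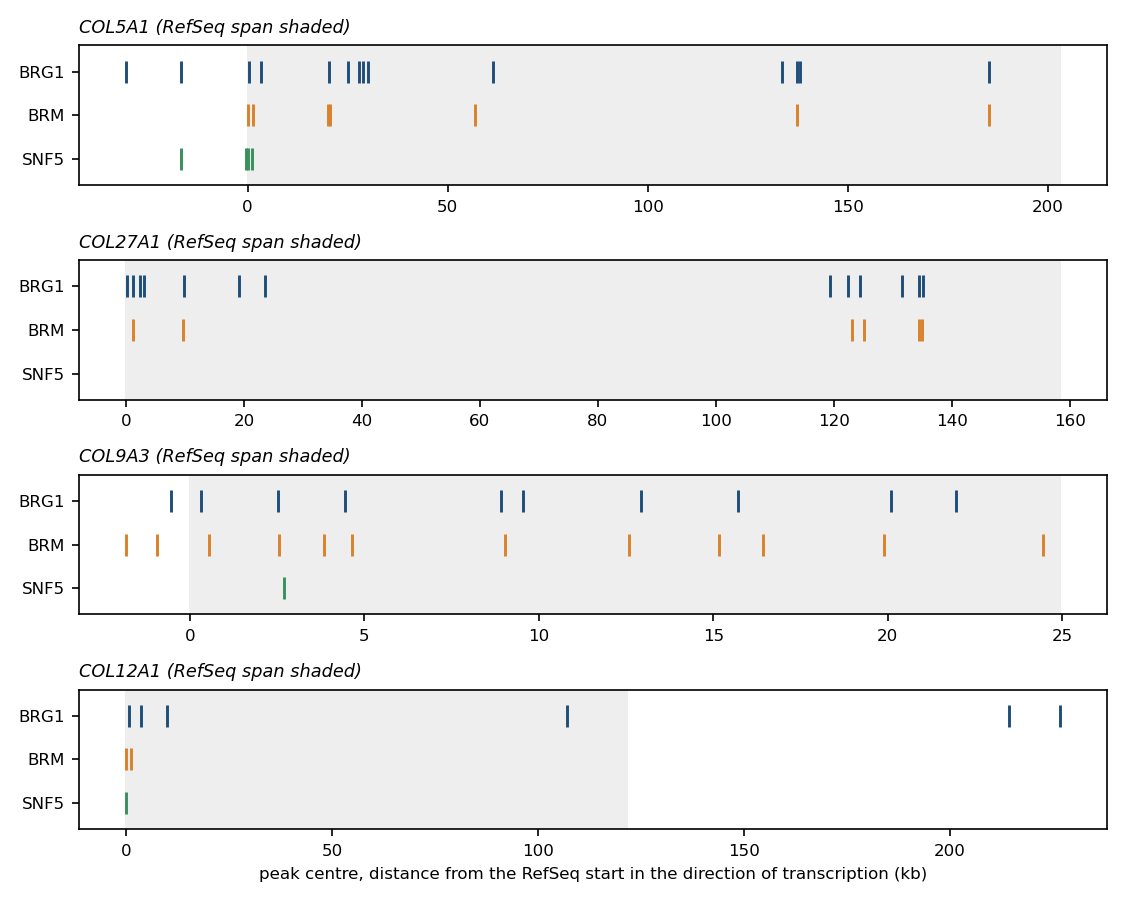
Centres of the BRG1, BRM and SNF5 peaks (ticks) that name COL5A1, COL27A1, COL9A3 and COL12A1, in kb from the RefSeq start in the direction of transcription, with the gene span shaded. Peaks named for COL27A1 lie in 2 stretches (the peak between them given to MIR455 is not drawn), those of COL9A3 all along a gene of 24.9 kb, and SNF5 is limited to the first kilobases or to sites before the start.

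Among the other collagens COL9A3, a FACIT chain of type IX collagen, stood out by density. Its span of 24.9 kb was named by 10 BRG1, 12 BRM and 1 SNF5 peaks. Within 1 kb of the span lay 11 BRM peaks, a number reached by few genes: 0.401% of all protein-coding genes had 10 or more. The widest BRG1 peaks of COL9A3 were 1940 bp (chr20:62817777-62819716) and 1903 bp (62830957 to 62832859), and each met 2 BRM peaks. The SNF5 peak of 165 bp lay on the first of these. COL9A3 was the collagen with more BRM than BRG1 peaks by the widest margin, and 2 of its BRM peaks met no BRG1 peak. Chromosome 20, where it lies, was rich in named genes (73.4% of its protein-coding genes by BRG1 and 66.1% by BRM), and the part of this in the count was not tested. COL20A1, also on chromosome 20, had a BRM peak of 652 bp without BRG1.

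COL12A1, a FACIT collagen that coats type I fibrils, was the fourth gene with all 3 subunits. A BRG1 peak of 2646 bp (chr6:75203936-75206581) covered its start and held BRM peaks of 407 and 541 bp. An SNF5 peak of 283 bp (75205802 to 75206084) lay inside the BRM peak of 541 bp and over the RefSeq start at 75206053. The remaining 5 BRG1 peaks of COL12A1 were 331 to 647 bp wide, and none met BRM. COL7A1, the anchoring fibril collagen that ties epithelium to stroma, had 1 BRG1 peak of 1583 bp (chr3:48594528-48596110) centred 10 bp from its start, with a BRM peak of 520 bp inside. COL13A1, a transmembrane collagen, had a BRG1 peak of 2159 bp (chr10:69801152-69803310) with a BRM peak of 417 bp centred on the start, and 3 intron peaks of BRG1 alone (787 to 1067 bp). COL8A1, a short-chain collagen, had a BRG1 peak of 2049 bp (chr3:99636858-99638906) that reached its start and held a BRM peak of 337 bp.

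The FACIT group as a whole was named in 8 of 10 genes by BRG1 and in 7 by BRM, with COL9A1 without a peak. COL21A1, a FACIT collagen, had 6 BRG1 peaks of 390 to 698 bp, all in introns, and a BRM peak of 474 bp on 1 of them. COL19A1 and COL9A2 had promoter sites of both ATPases, and COL14A1 and COL22A1 only narrow BRG1 peaks of at most 501 bp. Of 5 type VI genes, which encode the chains of beaded filaments, BRG1 and BRM named 2, COL6A1 and COL6A3. The COL6A1 BRG1 peaks (490 and 331 bp) lay either side of its start, and its BRM peak lay 14066 bp inside the gene. All 4 BRG1 peaks of COL6A3 lay past the end of its RefSeq span, 18787 to 24572 bp away, and the widest (1256 bp) held a BRM peak of 916 bp. COL23A1, a transmembrane collagen, had a promoter site of both ATPases, while COL25A1 and COL26A1 had a promoter peak of BRG1 alone (873 and 752 bp). COL28A1 had 4 BRG1 peaks away from promoters, of which 1 met BRM. COL8A2 and COL10A1 had single BRG1 peaks in introns (349 and 363 bp).

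The share of BRG1 peaks that met BRM at collagens was near that of the whole list. A BRM peak met 33.3% of the collagen BRG1 peaks (38 of 114; 24.8 to 42.8), against 35.7% of all BRG1 peaks. The shares were 30.2% for fibrillar (13 of 43), 40.0% for basement membrane (4 of 10) and 34.4% for other collagens (21 of 61). At promoters 55.0% met BRM (22 of 40; all BRG1 promoter peaks 61.6%), and elsewhere 21.6% (16 of 74; all 20.2%). An SNF5 peak met 4.39% of collagen BRG1 peaks (5 of 114; 1.44 to 9.94), against 9.58% of all. In the other direction, 43 of 52 collagen BRM peaks met BRG1 (82.7%; 69.7 to 91.8), against 92.2% of all BRM peaks. All 7 SNF5 peaks met BRG1 and 5 met BRM, against 96.1% and 91.9% of all SNF5 peaks. The 9 BRM peaks without BRG1 were named for COL5A1 and COL9A3 with 2 each and for COL4A5, COL5A3, COL6A1, COL8A2 and COL20A1 with 1 each.

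Collagen BRG1 peaks with a BRM peak were the wider ones. Their median width was 1059 bp, against 492 bp for those without, and over all BRG1 peaks the medians were 1163 and 511 bp. Among widths of 331 to 432 bp, the narrowest 25% of all BRG1 peaks, 10.3% of collagen peaks met BRM (3 of 29; all BRG1 peaks 8.48%). From 432 to 667 bp the share was 21.9% (7 of 32; all 17.8%), and from 667 to 1092 bp 30.3% (10 of 33; all 38.7%). From 1092 bp, the widest 25%, 90% met BRM (18 of 20; all 77.6%). The collagen share was above that of all peaks in 3 of the 4 width ranges and below it in the other. Each range held only 20 to 33 collagen peaks, several of the same gene, so no difference from all peaks is drawn from this. The median width was 646 bp for all collagen BRG1 peaks, 654 bp for fibrillar, 735 bp for basement membrane and 646 bp for other collagens, against 667 bp over all BRG1 peaks. Of collagen BRG1 peaks, 6.14% (7 of 114, in 6 genes) were at least 1646 bp wide, a width that 10% of all BRG1 peaks reached. These 6 genes were COL1A1, COL27A1, COL8A1, COL9A3, COL12A1 and COL13A1. None of them encodes a basement membrane collagen, a class with only 10 named BRG1 peaks. BRG1 peaks past this width did lie at 2 basement membrane genes under other names, of 2022 bp inside COL4A2 (given to MIR8073) and of 1836 bp at COL18A1 (given to BX322562.1).

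**Figure D5:**
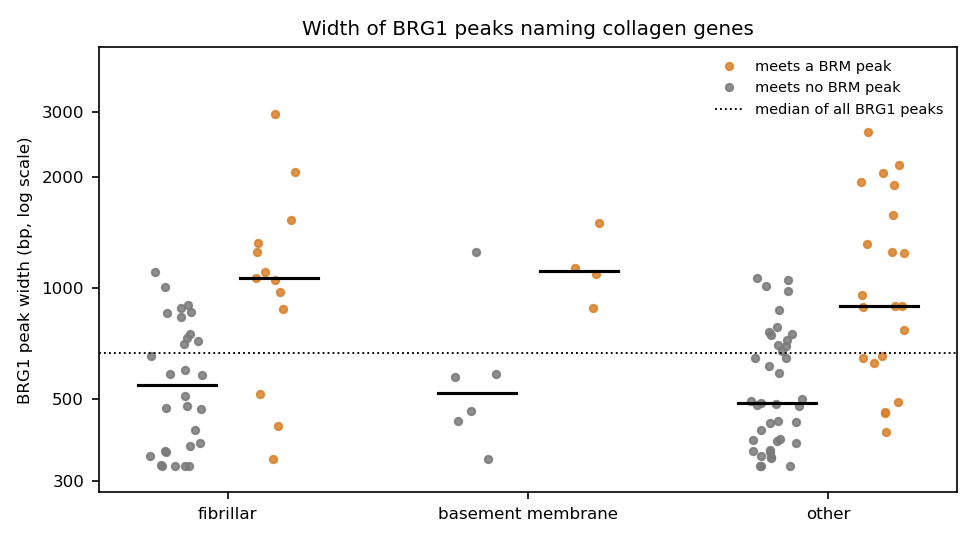
Width in bp (log scale) of each of the 114 BRG1 peaks that name a collagen gene, by class and by whether a BRM peak meets it, with the median of each set as a bar and the median of all BRG1 peaks (667 bp) dotted. In each class the peaks that met BRM had the higher median, and the sets overlapped.

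Genes that make, export, cross-link, bind or cut collagen were looked up in the same way. Of 51 such genes BRG1 named 40 (78.4%), BRM 34 (66.7%) and SNF5 10 (19.6%), against 63.7%, 49.7% and 19.7% of all protein-coding genes. The enzymes that hydroxylate and glycosylate collagen chains were named in 13 of 15 cases by BRG1, 14 by BRM and 4 by SNF5. P3H4, part of a lysyl hydroxylation complex, and PLOD2, a lysyl hydroxylase, had BRG1 peaks of 2663 and 2591 bp, and P4HA3 had no peak. Of 7 genes of folding and export BRG1 named 6 and BRM 5. FKBP10, not named by BRG1, had a promoter BRM peak of 821 bp (chr17:41812413-41813233). This BRM peak lay inside the BRG1 peak of 2663 bp given to P3H4 (chr17:41810796-41813458). SERPINH1, which encodes the collagen chaperone HSP47, had a BRG1 peak of 2439 bp at its promoter (chr11:75561949-75564387), and FKBP14 one of 1730 bp. All 8 genes of propeptide removal were named by BRG1 and 7 by BRM, with the proteases TLL2 (2397 bp) and TLL1 (1228 bp) ahead.

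Of the 5 cross-linking oxidases BRG1 and BRM each named 3 (60.0%), against 63.7% and 49.7% of all protein-coding genes. LOX had a promoter peak of 2111 bp for BRG1, LOXL4 a peak of 1512 bp annotated as distal, and LOXL2 and LOXL3 had no peak. Of 9 collagen receptors BRG1 named 6 (66.7%) and BRM 3 (33.3%). ITGA2, the integrin chain of the epithelial collagen receptor, had a BRG1 peak of 3492 bp (chr5:52987200-52990691) and DDR1, a receptor tyrosine kinase of epithelium, one of 2227 bp. GP6 and ITGA10 had none. Of 7 collagen-degrading proteases BRG1 named 4 (57.1%) and BRM 2 (28.6%). The BRM shares of receptors and proteases were thus below that of all protein-coding genes, unlike that of the whole list. MMP14, a membrane-bound collagenase, had the widest BRG1 peak of these genes (3668 bp, chr14:22836136-22839803), MMP9 had one of 1539 bp away from its promoter, and CTSK and MMP13 had none. Both the ITGA2 and the MMP14 peak were wider than any BRG1 peak of a collagen gene.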

How the data were processed

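The authors fixed cells for 30 min and digested the chromatin of the SWI/SNF samples with MNase, per the labels' protocols. Bowtie2, SAMtools, MACS2, deepTools 2.5.2 and hg38 stand in the submitters' processing notes, without roles. Threshold, filter and pooling of replicates: not given in the sources used here, nor is the annotation release. The deposited lists give start, end, width, place, nearest TSS and distance in bp, per the file headers, and no score or read count. Samples of histone marks and inputs among the 24 samples were not analysed here.

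Members, classes and lists were chosen with earlier results of these data known. Every collagen is named; coordinates are given for the 5 widest by BRG1 in each class, those with an SNF5 peak, the 5 with the most BRG1 peaks and neighbouring pairs, and of the pathway genes up to 2 per role with the widest peak and up to 2 without one. TP63, KRT5 and the other markers were listed for the cell type check, of which the luminal list is not reported here. The RefSeq table (GRCh38.p14) supplied gene spans, with names looked up by symbol, or by a synonym held by 1 gene only, and required to share the chromosome; genes of chromosome Y were left out. The direction of transcription came from the promoter table for 31 collagens and from background knowledge for 12. Overlap means at least 1 bp. Intervals are exact (Clopper-Pearson) at 95%. On simulated data the overlap routine found 700 of 700 planted peaks. Python 3.11.15, pandas 2.3.3, numpy 2.4.6, scipy 1.17.1 and matplotlib 3.10.9 were used. Alternatives were other rules for naming, promoter distance, overlap, peak width and class.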

Additional observations from a re-analysis of the deposited data

How the results depend on the processing

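No paired analysis was possible because each subunit has 1 peak list without replicate columns, and for the same reason no replicate could be left out. Depth is unknown, so a missing peak cannot be told from a weak one. The cause of the changes below was not tested. For the 6489 widest peaks and for the wider 50% of each list, the share of all protein-coding genes named was not calculated. With 6489 peaks from each list, the widest, BRG1 named 8 collagens (3 fibrillar, 0 basement membrane, 5 other) and BRM 5 (2, 0 and 3). With the wider 50% of each list BRG1 named 3 basement membrane collagens, BRM named 12 collagens (1 basement membrane, 7 other) and SNF5 2 (1 fibrillar, 1 other). The promoter share was then 45.3% for BRG1 and 71.4% for BRM, 66.7% for fibrillar BRM peaks and 100% for the 1 basement membrane BRM peak left. With promoter peaks only, SNF5 named 1 of the other collagens. Counting by gene span with a 1 kb flank, BRG1 reached 8 and BRM 7 basement membrane collagens. With promoters taken to 3 kb, the promoter share was 50.9% for BRG1 (55.7% for other collagens) and 67.3% for BRM (82.1% for other collagens). Chosen after seeing the data, leaving out COL5A1 and COL27A1 gave promoter shares of 50% for fibrillar BRG1 and 60.0% for fibrillar BRM peaks, and leaving out COL4A2 gave 80% for basement membrane BRG1 and 100% for basement membrane BRM peaks. With BRM peaks within 1 kb counted as met, the share of collagen BRG1 peaks was 43.9%. The number of BRG1 or BRM peaks of a single gene moved past 1.5 times the count in 171 comparisons and did not in 259. The 259 include genes that had 0 peaks by name, whose count a narrower rule can only leave at 0. The 2 numbers therefore do not show that counts per gene were mostly stable. With promoter peaks only, for example, the BRG1 peaks of COL5A1 went from 14 to 1. The other values not printed here stayed within 1.5 times the count or within the interval of the share. Moving COL7A1 to the basement membrane class, or leaving type IV alone in it, was among these.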

Other observations

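Several wide peaks inside collagen genes are credited to other genes, such as microRNA genes, and so are missed by a search for the collagen name. In COL4A2 a BRG1 peak of 2022 bp (chr13:110346545-110348566) with a BRM peak of 1145 bp (110346828 to 110347972) was given to MIR8073, 6595 bp from it, and was wider than any peak given to COL4A2 itself (at most 1251 bp). A second BRG1 peak given to MIR8073 was 796 bp wide and held a BRM peak of 360 bp. In COL18A1 a BRG1 peak of 1042 bp (chr21:45470781-45471822) given to MIR6815 met 2 BRM peaks of 524 and 310 bp. In COL23A1 a BRG1 peak of 1286 bp was given to AC008659.1. These peaks were chosen after their values were seen.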
